A study of Ovis aries with 9 samples.

Results

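The ovaries of 3 Small Tail Han ewes homozygous for the FecB mutation (Han BB, animals W1, W2 and W4) were compared with those of 3 Dorset ewes (animals D4, D5 and D6). These 6 libraries are 6 of the 9 in the series, and the other 3 are from Small Tail Han ewes without the mutation (Han ++, W6, W7 and W8), whose values are given only beside single genes. The Han BB ewes are labelled FecBBFecBB and the Dorset ewes wild type, so breed and FecB genotype differ together between the groups and cannot be told apart. The study describes Small Tail Han as a breed of high and Dorset as a breed of low fecundity. The comparison asks which transcripts differ between ovaries of high and of low fecundity. All ewes were adults of 1 farm whose estrus was synchronized with a progestagen sponge and pregnant mare serum gonadotropin, and whole ovaries bearing ovulation points were taken after the spontaneous estrus of the following cycle. Each library is 1 ewe, and the Han ewes were genotyped by the authors from blood.

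FecB is a point mutation in the kinase domain of BMPR1B, a receptor for bone morphogenetic proteins on granulosa cells and oocytes. Carriers ovulate more follicles than other ewes, and their follicles ripen at a smaller size. In the ovary, granulosa cells make estrogen and inhibin, theca cells make androgens under the control of luteinizing hormone, and both turn into progesterone-making luteal cells after ovulation. The ovulatory surge of luteinizing hormone also sets off a brief burst of immediate early genes, matrix remodelling and inflammation-like signals.

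Read totals on genes lay between 14545296 and 20438713 in Han BB and between 11716565 and 20748930 in Dorset. The table has 27174 rows, of which 15701 had enough reads to be tested. BMPR1B itself had 2, 3 and 0 reads in W1, W2 and W4 and 8, 3 and 3 reads in D4, D5 and D6, too few for a test and too few to check the genotype labels. Markers of the labelled tissue were present in all 6 libraries, with LHCGR, the luteinizing hormone receptor, between 21.1 and 34.8 CPM and FSHR, the follicle-stimulating hormone receptor, between 5.28 and 13.6 CPM (CPM are reads relative to the library total, after edgeR's TMM scaling between libraries). CYP19A1 and FOXL2, 2 defining granulosa genes, have no row in the table. The libraries W4 and D6 stood apart from the other 4 and near each other. Their rank correlation was 0.974, while W4 reached 0.918 with W1 and 0.902 with W2, and D6 reached 0.89 with D4 and 0.941 with D5. On the first principal component, which held 49.84% of the variance, W4 lay at 98.55 and D6 at 80.56, and the other 4 libraries lay between -94.57 and -17.57. In 7176 tested genes (45.7%), W4 and D6 both lay outside the range of the other 4 libraries. An uncharacterized transcript, LOC101101865, took 14.9% of the reads of D4, 3.79% of W2, 2.15% of D5 and at most 0.258% of the others. What sets these libraries apart was not tested, and each group holds 1 of the pair W4 and D6.

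No gene passed edgeR's test after adjustment across all genes. What follows describes genes that stood on 1 side in every library and gene lists that leaned to 1 side. With edgeR's quasi-likelihood test, 0 of 15701 genes (0%) passed both thresholds, a fold of 1.5 in either direction and an adjusted p (Benjamini-Hochberg) under 0.05. The lowest adjusted p was 0.559, for LOC101107743. An unadjusted p under 0.05 was reached by 503 genes (3.2% of those tested), of which 217 (1.38%) were higher and 286 (1.82%) were lower in Han BB. DESeq2 called 15 of 20937 genes (0.0716%), with 8 on the higher and 7 on the lower side, and gave 857 an unadjusted p under 0.05. The 15 were 7 symbols (S100A12 and SERPINA14 higher, and NR4A1, LECT1, BST1, CNTN4 and ELN.1 lower), 3 transfer RNA genes and 5 LOC rows. limma with voom quality weights called 0 genes, and gave 1607 an unadjusted p under 0.05. The typical gene hardly moved, with a median log2 fold change of 0.0059, a median size of 0.29 and a median standard error of 0.45, and 7932 genes (50.5%) lay above 0.

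Each of the 3 Han BB libraries can be set against each of the 3 Dorset libraries, which gives 9 pairs per gene. A gene higher or lower in all 9 pairs is one whose groups do not overlap. The pairs share libraries and are not independent, so these counts describe the data and carry no p. With 3 libraries per group, some genes separate in this way without any group difference. Lack of overlap alone therefore does not show that a gene differs, and how many genes would separate without a group difference was not tested. The counts that follow are not read as an excess. There were 698 genes (4.45%) higher in Han BB in all 9 pairs and 724 (4.61%) lower in all 9, together 1422 (9.06%). Most of these gaps were narrow. At least a 1.5-fold difference in every pair was kept by 80 higher and 92 lower genes, at least 2-fold by 24 and 28, and at least 4-fold by 5 and 3. Of the 503 genes with an unadjusted p under 0.05, 432 did not overlap.

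**Figure D1:**
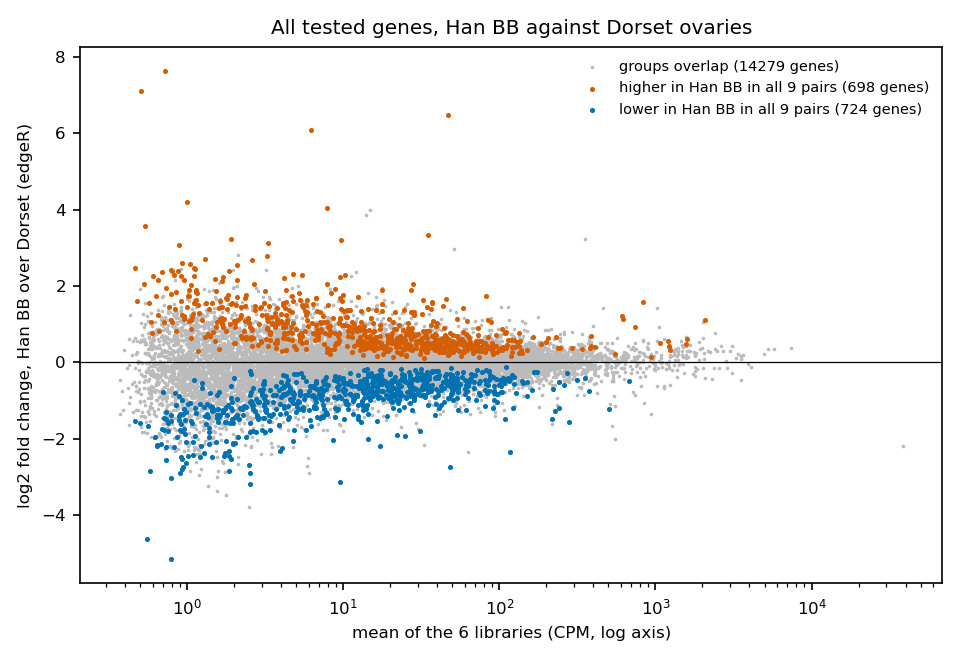
Log2 fold change of Han BB over Dorset from edgeR (vertical axis) against the mean of the 6 libraries in CPM (horizontal log axis) for the 15701 tested genes, with colour for the 698 higher and the 724 lower ones in every pair of libraries. The coloured genes lie on both sides of 0 at every level, and their fold changes narrow as the level rises.

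Genes without overlap were found at all levels, but wide gaps were rarer where reads were many. Of 1960 genes with a mean of 100 CPM and over, 50 (2.55%) were higher and 43 (2.19%) lower in all 9 pairs, and 0 differed by 2-fold in every pair. Of 4937 genes between 1 and 10 CPM, 256 were higher and 269 lower in all pairs, and 13 and 18 of these kept a 2-fold gap. Among 13213 rows with a gene symbol, 566 (4.28%) were higher and 650 (4.92%) lower in all 9 pairs, and among 2101 rows with a LOC identifier 104 (4.95%) were higher and 63 (3.0%) lower, and the difference between these shares was not tested.

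Because W4 and D6 stood apart, each gene was also split into 2 differences, W4 minus D6 and the mean of W1 and W2 minus the mean of D4 and D5. Across all tested genes these had the same sign in 63.3% (r = 0.25 across genes, a description, since the differences share scaling and base levels). Genes higher in all 9 pairs had a median difference of 0.55 between W4 and D6 and 0.76 between the other libraries, in log2 CPM. Those lower in all 9 pairs had medians of -0.66 and -0.80. The non-overlapping genes therefore stood apart in both sets of libraries, as their selection requires.

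**Figure D2:**
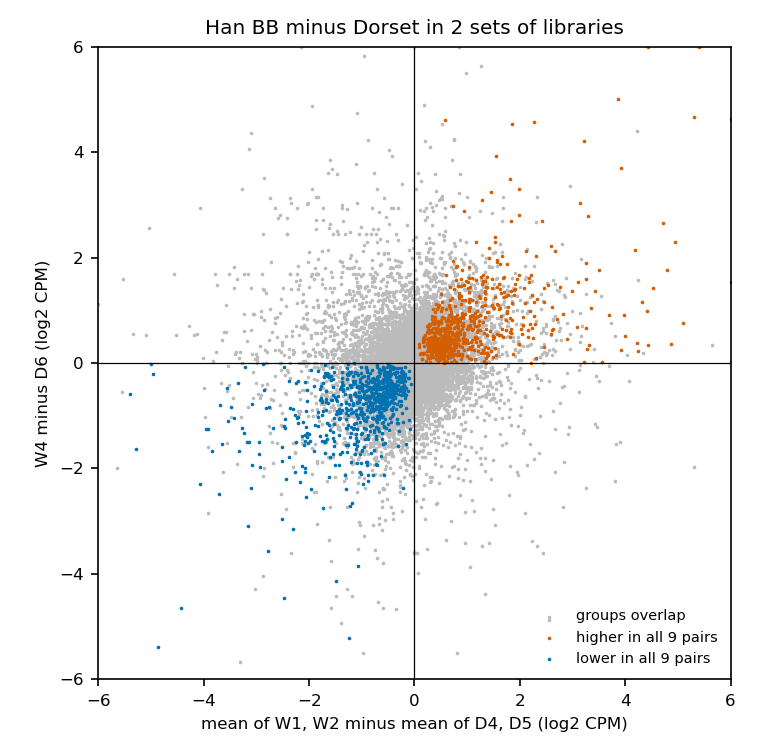
Difference between W4 and D6 (vertical axis, log2 CPM) against the difference between the means of W1 and W2 and of D4 and D5 (horizontal axis, log2 CPM), with 1 point per tested gene and 10 genes drawn at the edge of the axes at 6. Coloured genes, higher or lower in all 9 pairs, fall in the upper right and lower left, while the grey cloud of the other genes spreads in every direction.

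Outside the transfer RNA genes, the widest gap belonged to LOC101107743, which the annotation printed with the study's tables describes as a ribosomal protein L23 pseudogene on the plus strand of chromosome 1 from 37675143 to 37675553 (Oar_v3.1). It had 119, 104 and 56.9 CPM in W1, W2 and W4 and 0.584, 0.222 and 2.28 CPM in D4, D5 and D6. All 3 Han BB libraries were far above all 3 Dorset libraries, by at least 24.7-fold in every pair. The log2 fold change was 6.48 ± 0.83 (edgeR, ± standard error), with an adjusted p of 0.559. In Han ++, the same row had 0.525, 0.362 and 85.5 CPM in W6, W7 and W8, so that 1 of these 3 ewes stood with Han BB and 2 with Dorset. RPL23 itself, the parent gene of a large ribosomal subunit protein, had 2121, 2077 and 2553 CPM in Han BB and 2196, 949 and 2016 CPM in Dorset, and these groups overlapped. A pseudogene can share reads with its parent and with other copies, so the level of this row is uncertain.

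Some transfer RNA genes, which carry amino acids to the ribosome, had far more reads in Han BB. The table has 1584 of them, and among the 19 with enough reads for the test the median was 0.17 on the log2 scale and 11 lay above 0. Of the 19, 8 were higher and 0 lower in Han BB in all 9 pairs, beside 4.45% and 4.61% of all genes, but several passed the filter on low counts through Han BB alone and had to differ, so nothing is read from that count. TRNAK-UUU.5, a lysine tRNA gene, had 148, 81 and 374 reads in Han BB and 5, 3 and 0 in Dorset. TRNAD-GUC.7, an aspartate tRNA gene, had 371, 305 and 94 reads in Han BB and 14, 27 and 3 in Dorset. Both were higher in every Han BB library than in any Dorset library. In W6, W7 and W8 of Han ++, TRNAK-UUU.5 had 11.6, 6.06 and 4.14 CPM, beside 6.88, 5.6 and 24.4 CPM in Han BB. TRNAD-GUC.7 had 20.5, 14.9 and 17.6 CPM in Han ++, beside 17.3, 21.1 and 6.13 CPM in Han BB. TRNAK-UUU.12 had 28, 16 and 29 reads in Han BB and TRNAV-AAC.9, a valine tRNA gene, had 20, 20 and 11, and neither had a read in Dorset. With a floor of 3 counts over the Dorset group, these rows were at least 24.3-fold and at least 17-fold higher in Han BB. All transfer RNA reads did not share this direction and summed to 85, 144 and 113 CPM in W1, W2 and W4 and to 208, 72 and 44 CPM in D4, D5 and D6. Transfer RNA genes occur in near-identical copies, and how reads were divided among them is uncertain.

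Among genes with a symbol and at least 1 CPM in the higher group, 12 stood highest in Han BB by the smallest of their 9 differences. The values that follow chose these genes and describe them, without a test. CER1, KRIT1 and C14H19orf18 passed the filter on low counts through Han BB alone and had to differ, so nothing is read from their lack of overlap. CER1, a secreted antagonist of BMP and Nodal ligands, had 1.81, 1.59 and 1.3 CPM in W1, W2 and W4 and 0.389, 0.0443 and 0.163 CPM in D4, D5 and D6. All Han BB libraries were above all Dorset libraries by at least 3.19-fold, at a level of few reads. S100A12, a calcium-binding protein of neutrophils and monocytes, had 24.4, 12.9 and 14.7 CPM in Han BB and 4.18, 0.842 and 0.759 CPM in Dorset. W1 was the highest and D4 the nearest Dorset library, and the log2 fold change was 3.22 ± 0.72. CLEC4E, the myeloid receptor Mincle, had 4.51, 5.88 and 7.37 CPM in Han BB and 1.56, 0.0443 and 0.542 CPM in Dorset. It again left D4 as the closest of the Dorset libraries. SLC13A5, a sodium-coupled citrate transporter, had 5.02, 3.04 and 2.61 CPM in Han BB and 0.875, 0.576 and 0.38 CPM in Dorset. ROS1, a receptor tyrosine kinase, had 6.37, 6.16 and 11.3 CPM in Han BB and 2.82, 1.11 and 0.976 CPM in Dorset. For both, every Han BB library was at least 2.17-fold above every Dorset library.

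SYCP2L, an oocyte protein related to the synaptonemal complex, had 4.09, 2.35 and 2.93 CPM in Han BB and 0.875, 0.665 and 0.271 CPM in Dorset. CP, the copper-carrying ferroxidase ceruloplasmin, had 7.77, 7.61 and 8.8 CPM in Han BB and 3.31, 2.0 and 3.2 CPM in Dorset. The Han BB values of ceruloplasmin lay close together, and its log2 fold change was 1.51 ± 0.41. ROPN1L, a protein of the radial spokes of cilia and sperm tails, had 10.7, 9.68 and 8.28 CPM in Han BB and 3.31, 2.62 and 3.96 CPM in Dorset, with 25.7, 19.5 and 20.7 CPM in the Han ++ ewes. PLEKHB1, a membrane protein with a pleckstrin homology domain, had 31.1, 23.2 and 24.8 CPM in Han BB and 11.1, 5.01 and 11.2 CPM in Dorset, with 41.6, 34.7 and 36.4 CPM in Han ++. In these last 2 genes the Han ++ libraries were above both other groups. KRIT1, a scaffold of endothelial junctions, LRCOL1, a colipase-like gene, and C14H19orf18 made up the 12, with smallest-pair folds of 2.72, 1.95 and 2.58.

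**Figure D3:**
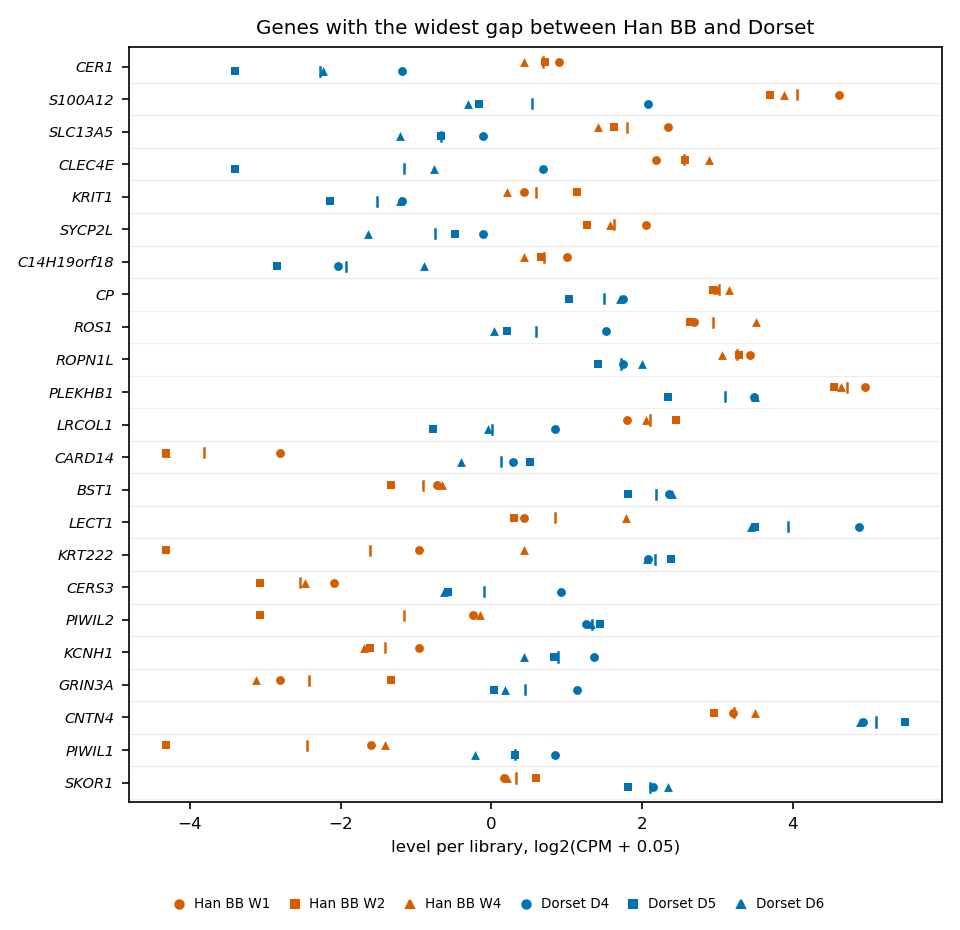
Level in each library as log2(CPM + 0.05) for the 12 higher (upper rows) and 11 of the 12 lower (lower rows) genes of Han BB with the widest gap between the groups, with 1 symbol per ewe and a short bar at each group mean. Orange Han BB and blue Dorset points are separate in every row, and triangles mark W4 and D6.

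On the lower side, BST1, the surface enzyme CD157 that cleaves NAD, had 0.558, 0.346 and 0.587 CPM in Han BB and 5.06, 3.46 and 5.2 CPM in Dorset. Every Dorset library was at least 5.66-fold above every Han BB library, and the log2 fold change was -3.18 ± 0.58. Its gene lies on the plus strand of chromosome 6 from 110451450 to 110466649 (Oar_v3.1). The Han ++ ewes had 1.62, 2.35 and 4.88 CPM, above the Han BB values in each, and within the Dorset range in W8. LECT1, a cartilage glycoprotein that restrains vessel growth, had 1.3, 1.18 and 3.39 CPM in Han BB and 29.3, 11.2 and 10.8 CPM in Dorset. D4 was the highest library and W4 the highest of Han BB, and the log2 fold change was -3.12 ± 0.62. CNTN4, a contactin of the neuronal surface, had 9.21, 7.68 and 11.3 CPM in Han BB and 30.4, 44.8 and 29.5 CPM in Dorset. It had the most reads of the 12 and a log2 fold change of -1.90 ± 0.34.

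PIWIL1 and PIWIL2, germ cell proteins that bind piRNAs and silence transposons, were both among these 12. PIWIL2 had 0.791, 0.0692 and 0.848 CPM in Han BB and 2.33, 2.66 and 2.44 CPM in Dorset. PIWIL1 had 0.279, 0 and 0.326 CPM in Han BB and 1.75, 1.2 and 0.813 CPM in Dorset. W2 was the lowest library in both genes, and the 3 Dorset values of PIWIL2 lay close together. CARD14, a scaffold of NF-kB signalling, had 2, 0 and 0 reads in W1, W2 and W4 and 12, 31 and 13 reads in D4, D5 and D6. With so few reads in Han BB, no fold is given. SKOR1, a corepressor of the SKI family, had 1.07, 1.45 and 1.11 CPM in Han BB and 4.38, 3.46 and 5.04 CPM in Dorset. The other members described here were KRT222, a keratin, CERS3, a ceramide synthase, KCNH1, a voltage-gated potassium channel, and GRIN3A, a subunit of NMDA receptors. Their smallest-pair folds ran from 2.68 for GRIN3A to 3.11 for KRT222. BST1, CARD14, CERS3, KCNH1, GRIN3A and PIWIL1 passed the filter on low counts through Dorset alone and had to differ, so nothing is read from their lack of overlap. Below the 12, and named after their values were seen, SV2A, a synaptic vesicle protein, CDH8, a cadherin, and CHD5, a chromatin remodeller, were also lower in Han BB by at least 2-fold in every pair, with log2 fold changes of -1.77 ± 0.45, -1.82 ± 0.51 and -2.69 ± 0.65.

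The next genes were ranked by the fitted fold change, among symbols with no overlap and at least 1 CPM in every library. SERPINA14, the uterine milk protein, led the higher side. It had 14, 38.9 and 139 CPM in Han BB and 11.4, 2.04 and 5.8 CPM in Dorset, with a log2 fold change of 3.33 ± 0.91. W4 was far above the other libraries, and W1 was only 1.23-fold above D4. WFDC2, a secreted epithelial protease inhibitor, had 11.3, 11.3 and 4.5 CPM in Han BB and 2.43, 2.08 and 1.08 CPM in Dorset. AOAH, a lipase of phagocytes that inactivates bacterial lipopolysaccharide, had 36.6, 18.2 and 28.6 CPM in Han BB and 9.63, 3.37 and 9.33 CPM in Dorset. D5 was the lowest library of AOAH, and the groups were apart by at least 1.89-fold. CA1, carbonic anhydrase of red blood cells, and C18H15orf26 were also ranked here, with log2 fold changes of 2.21 ± 0.65 and 1.91 ± 0.54. On the lower side, LECT1, described above, came first. NR4A1, an orphan nuclear receptor of the immediate early class, came next. NR4A1 had 9.02, 11 and 17.9 CPM in Han BB and 92.9, 123 and 36.8 CPM in Dorset. Its log2 fold change was -2.74 ± 0.50, and D6 was the lowest Dorset library. The Han ++ ewes had 6.58, 11.2 and 23.1 CPM of NR4A1. NPTX2, a secreted pentraxin, had 5.16, 1.31 and 12.3 CPM in Han BB and 19.9, 43.4 and 21.8 CPM in Dorset. BAI3, an adhesion G protein-coupled receptor, had 2.74, 10.8 and 3.91 CPM in Han BB and 19.4, 27 and 23 CPM in Dorset, with every Dorset library at least 1.79-fold above every Han BB library.

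Among genes that kept a 1.5-fold gap in every pair, the one with the most reads was RARRES1, a retinoic acid-responsive membrane protein. It had 1220.1, 1224 and 1322 CPM in Han BB and 713, 183 and 360.5 CPM in Dorset, with 2029, 1101 and 1889 CPM in Han ++. The Han BB values were tight, while those of Dorset ranged widely, and the log2 fold change was 1.58 ± 0.52. TAC3, the precursor of neurokinin B, had 73.7, 51.9 and 40 CPM in Han BB and 25.2, 15.4 and 15.9 CPM in Dorset. MGST1, a membrane glutathione transferase, had 43.5, 30.6 and 31.5 CPM in Han BB and 17.7, 7.94 and 15.3 CPM in Dorset. ABCA9, a lipid transporter of the ABC family, and SLC46A3, a lysosomal transporter, were higher by 1.09 ± 0.30 and 0.98 ± 0.31 on the log2 scale. GSTA1, a glutathione transferase that is abundant in steroid-making cells, had the most reads on the lower side, with 175, 188 and 58.9 CPM in Han BB and 339.9, 591 and 311 CPM in Dorset. W4 had the lowest level, and the log2 fold change was -1.56 ± 0.51. ANGPT2, a vessel-destabilizing ligand, had 50, 45.1 and 47.7 CPM in Han BB and 98.9, 83.3 and 101 CPM in Dorset. Within each group its values were close, and every Dorset library was at least 1.67-fold above every Han BB library, while Han ++ ranged over 124, 63.6 and 43.1 CPM. DBN1, an actin-binding protein, PPP1R15A, a stress-induced phosphatase subunit, and DAXX, a histone chaperone, had log2 fold changes of -1.05 ± 0.30, -1.20 ± 0.31 and -1.25 ± 0.35.

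The remaining results are by gene list. For each of 40 lists, the number of tested members above and below 0, the number that did not overlap and the median log2 fold change are given, to be read beside the 50.5% of all genes above 0, the 4.45% and 4.61% without overlap and the median of 0.0059. No member of any list was called by edgeR. In whole ovaries, fewer cells of a type and less RNA per cell cannot be told apart. In all, 17 of the 40 lists had a median above 0. Each of the 40 medians moved by over 1.5 times when at least 1 of the 6 libraries was left out, and 18 crossed 0. Values without single libraries are therefore given with many of the lists, and a list given without them is not thereby stable. Of 958 listed genes tested, 35 were higher and 52 lower in all 9 pairs.

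**Figure D4:**
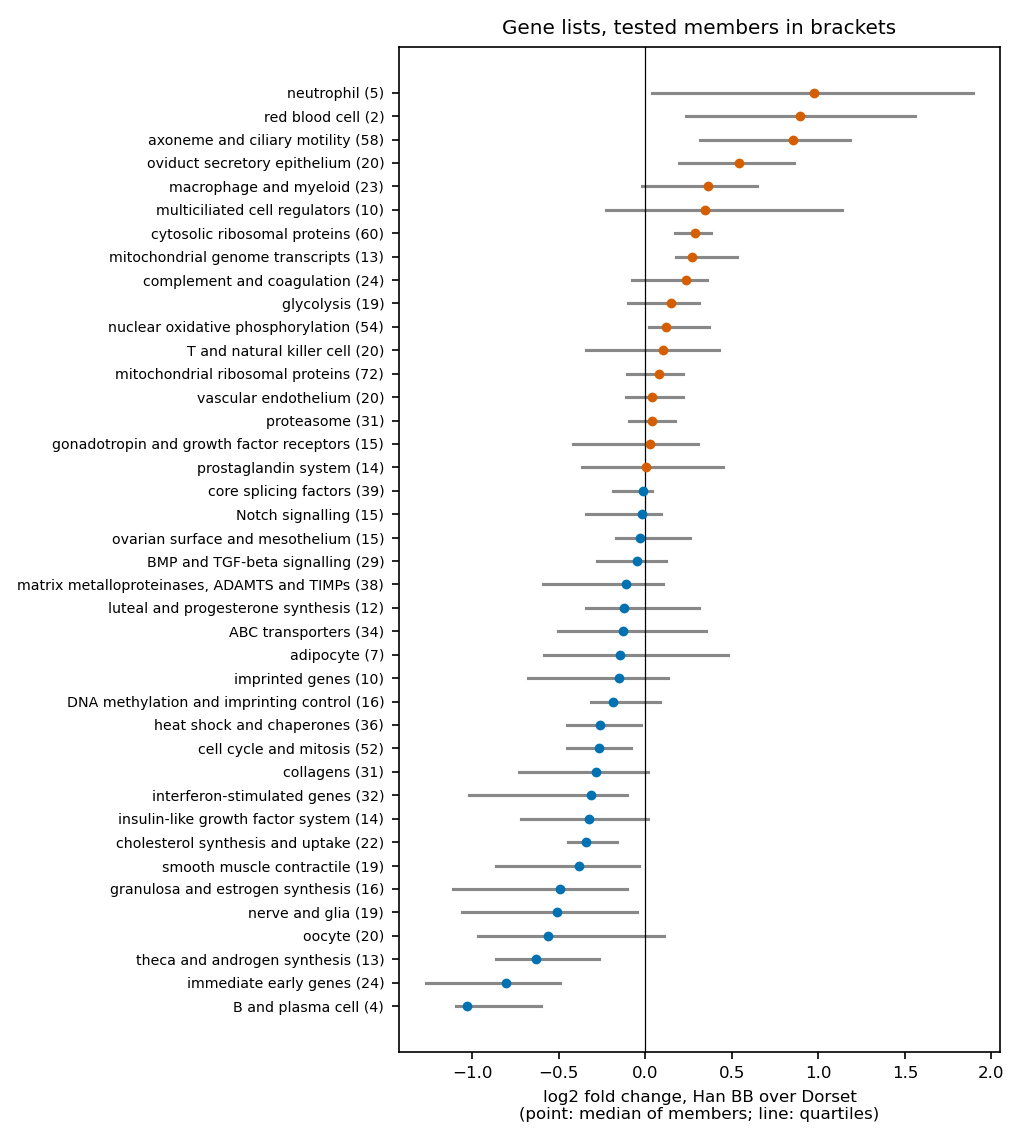
Median (point) and quartiles (line) of the log2 fold change of Han BB over Dorset for the tested members of 40 gene lists, ordered by the median, with the number of tested members in brackets. The ciliary and oviduct lists stand near the upper end, under the neutrophil and red blood cell lists of 5 and 2 genes, and the immediate early, theca, oocyte, nerve and granulosa lists near the lower end, above the B and plasma cell list of 4 genes.

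Markers of the follicle were mostly lower in Han BB. Of 13 theca and androgen synthesis genes, 3 were above and 10 below 0, with a median of -0.63, and 1 did not overlap. That gene was GLI1, a transcription factor of Hedgehog signalling, through which granulosa cells act on theca cells. It had 4.0, 2.01 and 4.17 CPM in Han BB and 8.85, 28.2 and 4.39 CPM in Dorset, where D5 was high and D6 only 1.05-fold above W4. CYP17A1, which makes androgens, had 5.44, 68.5 and 2.74 CPM in Han BB and 119, 28 and 37.6 CPM in Dorset. Its groups overlapped, because W2 was above D5 and D6, and the standard error was large, with a log2 fold change of -1.27 ± 1.09. The Hedgehog receptor PTCH1 had 44.1, 28.6 and 49.6 CPM in Han BB and 28.3, 119 and 74.2 CPM in Dorset, with D5 highest and D4 lowest. D5 was also the highest library for GLI1, GLI2, NR5A1 and INSL3. Without D5 the median of the list was -0.24. Over the list the median difference was -0.07 between W4 and D6 and -0.70 between the other libraries. The summed level of the list did not follow the median, with 3639, 3074 and 1437 CPM in Han BB and 3266, 2454 and 1503 CPM in Dorset.

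Of 16 granulosa and estrogen synthesis genes, 4 were above and 12 below 0, with a median of -0.49, and 3 were lower in all 9 pairs. AMH, anti-Muellerian hormone of small growing follicles, had 1.21, 0.553 and 0.326 CPM in Han BB and 1.95, 2.22 and 1.52 CPM in Dorset. LRP8, a receptor for apolipoprotein E and reelin, had 7.39, 17 and 19.7 CPM in Han BB and 22.4, 36.7 and 27.8 CPM in Dorset. ESR2, estrogen receptor beta, had 4.6, 4.98 and 4.89 CPM in Han BB and 5.74, 8.42 and 6.24 CPM in Dorset. All 3 genes were lower in every Han BB library, but by as little as 1.14-fold for LRP8 and 1.15-fold for ESR2. FST, the activin-binding protein follistatin, had 15.1, 36.5 and 19.8 CPM in Han BB and 28.8, 74.1 and 52 CPM in Dorset. INHBA, the activin and inhibin beta A chain, had 15.2, 72.3 and 89 CPM in Han BB and 55.7, 164 and 161 CPM in Dorset. W1 was the lowest library in both, and W2 lay above D4 in each. Without W4 the list median was -0.76. TNFAIP6, a matrix gene of the expanding cumulus, went the other way through W4, with 34.5, 8.65 and 228 CPM in Han BB and 29.3, 3.15 and 2.33 CPM in Dorset.

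Luteal and progesterone synthesis genes showed no common direction, with 5 of 12 above 0 and a median of -0.12, which ran from -0.54 without W2 to 0.47 without D4. CYP11A1, which makes the first step from cholesterol to steroids, had 109, 432 and 71.7 CPM in Han BB and 492, 123 and 138 CPM in Dorset. W2 and D4 were the high libraries, 1 in each group. OXT, the oxytocin gene of the young corpus luteum, had 188, 712 and 9.32 CPM in Han BB and 782, 1.86 and 48.2 CPM in Dorset. It was high in the same 2 libraries and in W1, and the spread within each group was far larger than the difference between the groups. STAR, the cholesterol carrier into mitochondria, had 132, 159 and 163 CPM in Han BB and 146, 19.4 and 125 CPM in Dorset, with only D5 well below the others.

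Oocyte genes were lower in 14 of 20 tested cases, with a median of -0.56, 4 lower and 1 higher in all 9 pairs. The 4 lower genes were PIWIL1, PIWIL2, MOS, a kinase of meiotic arrest, and NPM2, an oocyte histone chaperone. PIWIL1 passed the filter on low counts through Dorset alone. MOS had 1.21, 0.415 and 0.391 CPM in Han BB and 1.56, 1.37 and 1.79 CPM in Dorset. NPM2 had 1.86, 1.11 and 1.96 CPM in Han BB and 2.04, 2.79 and 5.37 CPM in Dorset, a narrow gap of few reads. ZP2, a protein of the zona pellucida around the oocyte, was the 1 higher gene, with 4.6, 4.29 and 4.5 CPM in Han BB and 3.7, 3.77 and 3.47 CPM in Dorset. GDF9, an oocyte growth factor in which other fecundity mutations are known, had 3.21, 1.25 and 4.63 CPM in Han BB and 1.17, 4.35 and 3.8 CPM in Dorset, and the groups overlapped. BMP15 had too few reads for the test. The list median was -0.31 without D6, -0.35 without W2 and -0.86 without W1. Summed over the list, the level was 86.3, 94.3 and 84.9 CPM in Han BB and 76.1, 85.0 and 103.2 CPM in Dorset, and the sums overlapped. SYCP2L, the oocyte protein described above as higher in every Han BB library, is not in that list.

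In the pathway of the FecB receptor itself, 11 of the 29 tested genes listed for BMP and TGF-beta signalling were above 0, the median was -0.05, and 1 gene did not overlap. The median of this list ran from -0.15 without D4 to 0.07 without D5. CER1, the BMP antagonist with the widest gap on the higher side, is not in that list. BMPR1A, the sister receptor of BMPR1B, had 306, 245 and 247 CPM in Han BB and 183, 324 and 268 CPM in Dorset. Among the signal carriers, SMAD5 had 83.8, 74.1 and 109 CPM in Han BB and 66, 84.6 and 120.1 CPM in Dorset. Both were interleaved between the groups. ID1, a direct target of BMP signals, had 25.5, 31.1 and 19.4 CPM in Han BB and 48.2, 24.9 and 29.5 CPM in Dorset, with a log2 fold change of -0.43 ± 0.36. ID2 and ID3, targets of the same kind, had log2 fold changes of -0.01 ± 0.29 and -0.46 ± 0.45. CHRD, the BMP antagonist chordin, was the gene without overlap, with 4.79, 4.7 and 2.28 CPM in Han BB and 8.75, 5.81 and 5.26 CPM in Dorset. GREM1, another antagonist, had 0.093, 0.83 and 0 CPM in Han BB and 4.38, 1.55 and 0.542 CPM in Dorset, and W2 lay above D6. SMAD1, BMPR2 and NOG had too few reads for the test. Gonadotropin and growth factor receptors likewise had a median of 0.03, with 9 of 15 above 0 and FSHR and LHCGR overlapping between the groups.

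Immediate early genes, which are switched on within minutes of a hormone or stress signal, were all on the lower side. Each of the 24 tested members had a log2 fold change below 0, with a median of -0.80, and 4 (NR4A1, NAB2, IER3 and FOSL2) were lower in all 9 pairs. NAB2, a corepressor of EGR factors, had 62, 78.2 and 63.2 CPM in Han BB and 117, 112 and 127 CPM in Dorset, with a log2 fold change of -0.81 ± 0.28. IER3, a regulator of cell survival, had 31.1, 24.6 and 28.9 CPM in Han BB and 59.4, 32.7 and 38.9 CPM in Dorset. Both were below every Dorset library in all 3 Han BB ewes. FOS, a subunit of the transcription factor AP-1, had 44.7, 56.1 and 88.6 CPM in Han BB and 131, 271 and 50.4 CPM in Dorset. JUND, a partner of FOS, had 66.1, 65.1 and 22.9 CPM in Han BB and 171, 185 and 53.2 CPM in Dorset. In both genes D6 was the lowest Dorset library and lay among the Han BB values. Over the list the median difference was -0.16 between W4 and D6 and -1.12 between the other libraries. Without W4 and D6 the list median was -1.0, and without D4 it was -0.41. EGR1, the best known gene of the class, had too few reads for the test.

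**Figure D5:**
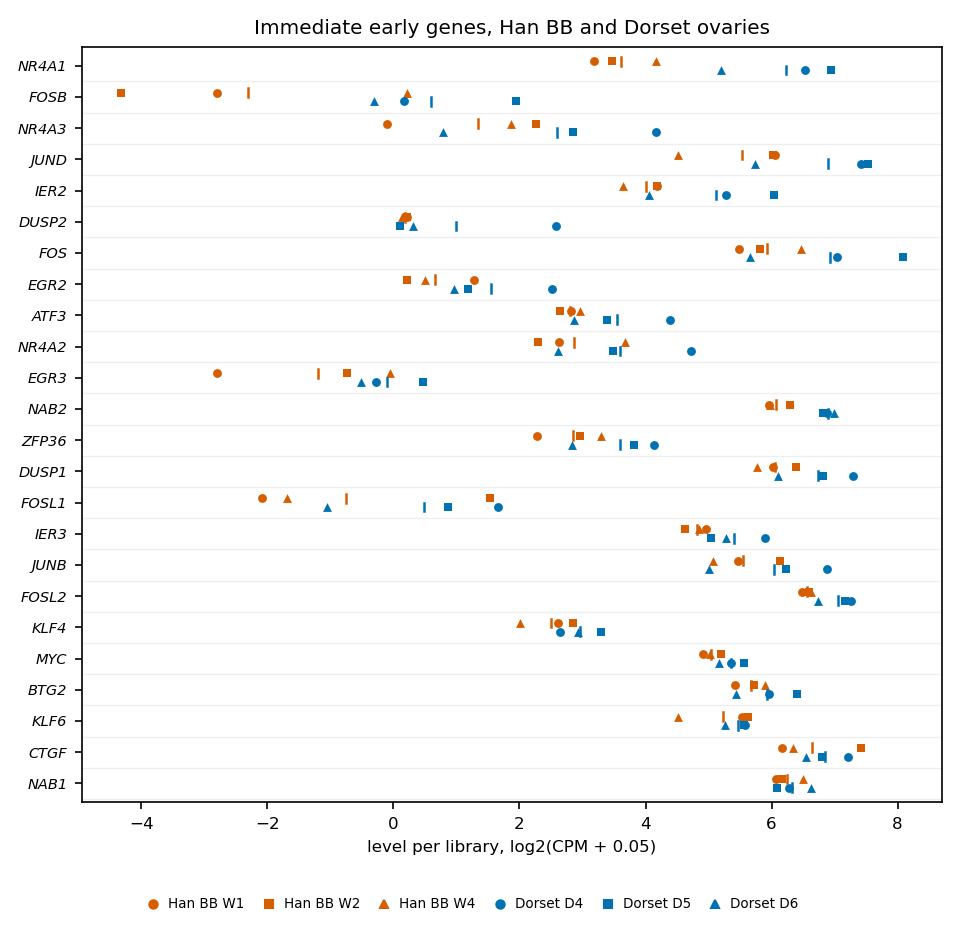
Level in each library as log2(CPM + 0.05) for the 24 tested immediate early genes, ordered by the fold change, with 1 symbol per ewe and a short bar at each group mean. The bar of Dorset is to the right of that of Han BB in every row, and D6 (blue triangle) often lies among the orange Han BB points.

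Heat shock and chaperone genes were lower in 29 of 36 cases, with a median of -0.26 and 5 lower in all 9 pairs. DNAJB1, a co-chaperone of HSP70, had 28.6, 32.3 and 26.3 CPM in Han BB and 54, 61.9 and 62.4 CPM in Dorset, with a log2 fold change of -1.03 ± 0.27. HSPA6, a strictly inducible HSP70, had 8.04, 8.16 and 8.54 CPM in Han BB and 17.1, 11.1 and 26.8 CPM in Dorset. The summed level of the list was set by other members and was highest in W4 and D6, at 14030 and 15522 CPM, against 6502 to 11732 CPM in the other libraries. The list median was -0.04 without D6 and -0.08 without W1, so that its size rests on these libraries. Cholesterol synthesis and uptake genes were lower in 19 of 22 cases, with a median of -0.34. LSS, which closes the sterol ring, had 11.8, 11.8 and 9.32 CPM in Han BB and 22.4, 21.5 and 16.8 CPM in Dorset. IDI1, an early enzyme of the same pathway, had 55.6, 67.4 and 93.8 CPM in Han BB and 111, 104 and 118 CPM in Dorset. Both were lower in every Han BB library, as was FDFT1, the first enzyme of the sterol branch, by 1.01-fold in its closest pair. The median of the cholesterol list was -0.21 without W4 and -0.53 without W2.

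Cell cycle and mitosis genes were lower in 45 of 52 cases, with a median of -0.27, and 3 were lower in all 9 pairs. CDC6, which licenses replication origins, had 5.67, 5.26 and 3.91 CPM in Han BB and 7.29, 8.73 and 7.21 CPM in Dorset. AURKB, a kinase of chromosome segregation, had 2.88, 4.15 and 2.54 CPM in Han BB and 6.71, 4.7 and 5.26 CPM in Dorset. CDC45, a part of the replicative helicase, had 1.72, 7.61 and 3.91 CPM in Han BB and 14.2, 7.76 and 11.7 CPM in Dorset, with W2 next to D5. The summed level of the list ranged from 851 CPM in W1 to 1710 CPM in D5, and the sums of the groups overlapped. The list median was -0.10 without D5 and -0.12 without W1, -0.43 without W2 or W4, -0.40 without D4, and -0.64 in limma, which weights the libraries.

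Genes of motile cilia, which beat on the epithelium of the oviduct and its fimbria, were mostly higher in Han BB. Of 58 tested genes of the axoneme and ciliary motility, 49 were above 0, with a median of 0.86, and 5 were higher and 0 lower in all 9 pairs. TEKT3, a tektin of ciliary microtubules, had 47.6, 49.5 and 25.1 CPM in Han BB and 19.2, 12.5 and 17.3 CPM in Dorset. CAPS, a calcium-binding protein of ciliated cells, had 16.8, 13.3 and 32.6 CPM in Han BB and 7.1, 5.36 and 11.5 CPM in Dorset. ZMYND10, an assembly factor of dynein arms, had 14.4, 10.6 and 10.2 CPM in Han BB and 6.52, 4.74 and 9.7 CPM in Dorset. These 3 and ROPN1L and RSPH9 made up the 5. W4 carried much of the rest. DNAH5, a heavy chain of the outer dynein arm, had 97.1, 42.5 and 309.7 CPM in Han BB and 29.6, 34.5 and 99.9 CPM in Dorset, so that D6 was above W1 and W2. Summed over the list, the level was 2313 CPM in W4, 1191 CPM in D6, 916 CPM in W1, 719 CPM in W2, 578 CPM in D4 and 500 CPM in D5. Within each of the 2 sets of libraries Han BB was above Dorset, with a median difference of 0.92 between W4 and D6 and 0.64 between the others. Leaving out W4 alone, which keeps D6 among the Dorset libraries, gave a median of -0.10, and leaving out both gave 0.63. The median was 1.33 without D6 and 0.56 without D5.

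Secretory genes of the oviduct were also mostly higher. Of 20 tested, 17 were above 0, with a median of 0.54, and 4 were higher in all 9 pairs. OVGP1, the oviduct-specific glycoprotein, had 979, 828 and 1092 CPM in Han BB and 479, 365 and 697 CPM in Dorset, with a log2 fold change of 0.91 ± 0.39, and 1824, 761 and 1616 CPM in Han ++. TFF3, a trefoil peptide of mucous epithelia, had 4.37, 7.95 and 1.11 CPM in Han BB and 0.584, 0.576 and 0.922 CPM in Dorset. WFDC2 and SPINT1, a serine protease inhibitor, were the other members without overlap. PAX8, a transcription factor of this epithelium, was among the 3 members below 0. Its log2 fold change was -0.54 ± 0.72, the lowest of the list, and its groups overlapped. The mean log2 CPM of this list was higher in Han BB in 9 of 9 library pairs, and its median stayed between 0.38 and 0.88 under all 15 alternative analyses. How much oviduct or fimbria each sample held was not recorded in the labels, and its part in these lists was not tested. The 10 tested regulators of multiciliated cells had a median of 0.35, with 6 above and 4 below 0, and a median of -0.08 without W4 and 0.23 without W1.

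Myeloid genes lay mostly above 0 and interferon-stimulated genes mostly below it, and both lists depended on single libraries. Of 23 macrophage and myeloid genes, 17 were above 0, with a median of 0.36. ITGAM, the integrin CD11b, had 51.9, 41.4 and 72.8 CPM in Han BB and 33, 7.89 and 14.8 CPM in Dorset. LAPTM5, a lysosomal protein of blood cells, had 152, 125 and 128 CPM in Han BB and 101, 35.9 and 84.7 CPM in Dorset. Both were higher in every Han BB library, with D4 the closest Dorset library, while PLEK, a substrate of protein kinase C in leukocytes, was lower in all 9 pairs. The summed level of the myeloid list was highest in D4, at 2037 CPM, against 1747, 1337 and 1299 CPM in Han BB, 636 CPM in D5 and 855 CPM in D6. Its median was 0.86 without D4, 0.20 without D5 and 1.01 in limma. Of 5 neutrophil genes, 4 were above 0, but only S100A12 did not overlap, and MMP9 had a log2 fold change of 0.04 ± 0.62. The median of the neutrophil list was 0.97, and ran from 0.49 without D5 to 2.77 without D4. Without both W4 and D6 it was 0.25. Of 32 interferon-stimulated genes, 29 were below 0, with a median of -0.32. MX1, an antiviral GTPase, had 59.7, 46.7 and 65.9 CPM in Han BB and 66.3, 317 and 101 CPM in Dorset. IFI6, a mitochondrial interferon-induced protein, had 346, 203 and 114 CPM in Han BB and 1146, 1286 and 222 CPM in Dorset. D5 was the highest library for both, and D4 was only just above W4 for MX1, while D6 lay within the Han BB range for IFI6. The summed level was 3664 CPM in D5 against 1134 to 2238 CPM in the other libraries, and the list median was 0.11 without D5, -0.16 without W2 and -0.48 to -0.63 without any other library. T and natural killer cell genes, with 12 of 20 above 0, had a median of 0.10, which ran from -0.05 without W1 to 0.22 without D6. The 4 tested B and plasma cell genes had a median of -1.03 at few reads, and of -0.23 without D4 and -0.61 without D5.

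Smooth muscle genes were lower in 14 of 19 cases, with a median of -0.38, and 4 were lower in all 9 pairs. CNN1, calponin of contractile cells, had 125, 205 and 112 CPM in Han BB and 285, 410.3 and 313 CPM in Dorset, with a log2 fold change of -1.19 ± 0.37. DES, the muscle filament desmin, had 185, 399 and 314 CPM in Han BB and 402, 861 and 845 CPM in Dorset, where D4 was only just above W2. SMTN, smoothelin, had 59, 74 and 77.1 CPM in Han BB and 93.5, 159 and 119.8 CPM in Dorset. ACTA2, smooth muscle actin, did not follow, with 1637, 2911 and 1303 CPM in Han BB and 1812, 1974 and 1792 CPM in Dorset. The list median was -0.18 without D6, -0.20 without W1, -0.58 without W2 and -0.72 without W4. Collagens were lower in 23 of 31 cases, with a median of -0.28 and 1 gene without overlap, COL4A6 of basement membranes, and their median ran from -0.14 without D5 to -0.48 without W2. Matrix proteases and their inhibitors had a median of -0.11, which ran from -0.39 without W2 to 0.11 without D4. In that list ADAMTS9 had 19.3, 13.3 and 29.4 CPM in Han BB and 6.13, 8.34 and 13.2 CPM in Dorset and was higher in all 9 pairs, while ADAMTS2, ADAMTS10 and ADAMTS17 were lower in all 9. Endothelial genes were even, with 10 of 20 above 0 and a median of 0.04, which ran from -0.16 without W2 to 0.20 without W4. Among them ANGPT2 was lower and PROX1, the regulator of lymphatic vessels, higher in all 9 pairs.

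Nerve and glia genes were lower in 14 of 19 cases, with a median of -0.51, but 2 members were higher in all 9 pairs. S100B, a calcium-binding protein of glia, had 49.6, 38.2 and 70 CPM in Han BB and 26.2, 11.8 and 22 CPM in Dorset. SNAP25, a protein of vesicle fusion, had 20.9, 13.4 and 19.2 CPM in Han BB and 9.05, 8.91 and 9.92 CPM in Dorset. Both were higher in every Han BB library, against the direction of the median, which was -0.95 without W4. Ovarian surface and mesothelium genes had a median of -0.03. Among them UPK1B, a uroplakin, had 42.7, 108 and 55.4 CPM in Han BB and 9.34, 35.2 and 20.9 CPM in Dorset and was higher in all 9 pairs, as was LRRN4, with a log2 fold change of 1.04 ± 0.45.

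Genes of translation lay slightly above 0 as a group. Of 60 cytosolic ribosomal protein genes, 57 were above 0, with a median of 0.29, and 3 (RPL7, RPL24 and RPS3A) did not overlap. RPS3A had 4141, 2032 and 2321 CPM in Han BB and 2009, 993 and 916 CPM in Dorset. W1 was the highest library, and W2 was above D4 by 1.01-fold. The spread between libraries was wider than the difference between groups, since the summed level was 103512 CPM in W1, 92434 CPM in W2 and 104372 CPM in D4, but 58211 CPM in W4, 54827 CPM in D5 and 49215 CPM in D6. The list median ran from 0.09 without D6 to 0.68 without D4, and was 0.62 in limma. Mitochondrial ribosomal proteins had a median of 0.08 with 44 of 72 above 0, and nuclear genes of oxidative phosphorylation 0.12 with 41 of 54. Without D5 these medians were -0.07 and 0.02, and without D4 they were 0.25 and 0.45. The 13 protein-coding transcripts of the mitochondrial genome had a median of 0.27, with 11 above 0 and a summed level from 6901 CPM in D5 to 19358 CPM in W2, and their median was 0.03 without D5 and 0.79 without D4. Glycolysis genes had a median of 0.15, which ran from -0.11 without W2 to 0.34 without D4. PFKFB3, a regulator of glycolytic flux, had 28.6, 21.5 and 23.1 CPM in Han BB and 14.3, 16.2 and 17 CPM in Dorset. The proteasome list (0.04) and the core splicing list (-0.01) were close to the median of all genes.

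Other lists held single genes without overlap. Insulin-like growth factor genes were lower in 10 of 14 cases, with a median of -0.32. IGFBP3, the main binding protein in blood, had 144, 136 and 36.8 CPM in Han BB and 196, 223 and 162 CPM in Dorset, with W4 far below the rest. Without W4 the list median was -0.12, and without D4 -0.15. IGFBP6 and IGF2BP3, an RNA-binding protein, were also lower in all 9 pairs. Among 10 imprinted genes, with a median of -0.15, PEG10, a gene derived from a retrotransposon, had 85, 71.5 and 51.9 CPM in Han BB and 115, 124 and 130.2 CPM in Dorset. Genes of DNA methylation had a median of -0.18, which ran from -0.295 without D4 to 0.0008 without D5. Among them MBD3, a subunit of a repressor complex, had 34, 38.6 and 25.5 CPM in Han BB and 74.9, 68.4 and 43.5 CPM in Dorset. PEG10 and MBD3 were both lower in every Han BB library. In the complement and coagulation list, with 17 of 24 above 0 and a median of 0.23, coagulation factor F5 had 19.9, 20.4 and 44.1 CPM in Han BB and 15, 11.7 and 13.8 CPM in Dorset and was higher in all 9 pairs. ABC transporters had a median of -0.13, with 4 higher and 2 lower in all 9 pairs. The prostaglandin (0.01), Notch (-0.02) and adipocyte (-0.15) lists had medians near 0, and the red blood cell list had only 2 tested members, of which CA1 was above 0.

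Several of the genes that the study singles out for expression did not overlap between the groups. TTC26, a protein of transport inside cilia, had 9.21, 8.37 and 8.67 CPM in Han BB and 4.18, 5.19 and 5.26 CPM in Dorset, with a log2 fold change of 0.84 ± 0.36. MYH15, a myosin heavy chain, had 1.02, 1.25 and 1.17 CPM in Han BB and 3.21, 3.41 and 2.44 CPM in Dorset. NYAP1, an adaptor of phosphoinositide 3-kinase in neurons, had 5.35, 2.49 and 3.2 CPM in Han BB and 7.59, 12 and 10.3 CPM in Dorset. TTC26 was thus higher, and MYH15 and NYAP1 lower, in every Han BB library. LRCOL1, also among the genes the study singles out, was higher in every Han BB library, with a log2 fold change of 2.04 ± 0.62. The study chose these genes on the same samples, so they are no independent evidence. The counts are per gene symbol, so coding and long non-coding transcripts under 1 symbol cannot be told apart. GRIA1, a subunit of AMPA receptors, had 1.02, 2.08 and 2.15 CPM in Han BB and 7.0, 5.19 and 1.95 CPM in Dorset. D6 lay within the Han BB range, and the log2 fold change was -1.43 ± 0.62. ABTB1, a BTB domain protein, had 15.8, 11 and 2.09 CPM in Han BB and 12.4, 11.6 and 4.17 CPM in Dorset, and PAX8, a transcription factor of the oviduct epithelium, had 9.02, 5.81 and 3.06 CPM and 18, 5.81 and 2.49 CPM. In both, the values of the groups were interleaved.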

How the data were processed

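Ovary RNA of 3 Han BB and 3 Dorset ewes had been sequenced as paired-end reads on an Illumina HiSeq. Strand-specific libraries depleted of ribosomal RNA are described in the methods, but the labels name another kit. The authors aligned the reads to Oar_v3.1 with TopHat (per the submitters' processing notes) and deposited the raw counts of reads per gene, without normalization. As the sources used here give neither the counting program nor its strand setting, overlapping antisense genes and near-identical copies are uncertain. Totals lay between 11716565 and 20748930 reads, and PCR reads are not independent molecules, so the floor of 3 counts covers counting error only.

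Columns were mapped to ewes by the sample titles, and groups by the genotype labels. The 6 libraries were fitted in R 4.3.3 with edgeR 4.0.16 (TMM scaling, the expression filter by group, quasi-likelihood F-test, Benjamini-Hochberg adjustment over the 15701 genes tested), at the study's thresholds of a 1.5-fold difference in either direction and an adjusted p under 0.05. The study used DESeq. The biological coefficient of variation was 0.488. Standard errors are the log2 fold change divided by the root of F. Pairwise differences used log2 CPM with a prior count of 0.5. Han ++ values come from the scaling of all 9 libraries. Alternatives were DESeq2 1.42.0, limma 3.58.1, DESeq2 size factors, library totals, 2 other filters on low counts, a fit of all 9 libraries, no fold threshold, a term for W4 and D6, leaving both out, and leaving out each library. The test was also tried on simulated counts with known changes, drawn without the split of W4 and D6, and no result here rests on them. Figures were drawn with matplotlib 3.10.9.

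The comparison, the 40 gene lists and the rules for names were chosen with earlier results of these data known. Named genes were the 12 higher and 12 lower in Han BB with the widest gap. They had a symbol, no overlap and at least 1 CPM in the higher group. Next came the 5 higher and 5 lower by fold change, with a symbol, no overlap and at least 1 CPM in every library. The 5 and 5 with the highest mean among symbols with a 1.5-fold gap, and up to 4 members per list without overlap, were also named. BMPR1B, genes the study names, and the rows with the lowest DESeq2 p were added. Other list members were named, after their values were seen, for their known roles or to show the spread. Names were matched to a RefSeq table of another assembly for 13349 tested rows (85.0%) and used for gene types only. Positions are those of the annotation printed with the study's tables. Methylation, small RNA and qPCR data were not used here, and a few genes are not reported here by name.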

Additional observations from a re-analysis of the deposited data

How the results depend on the processing

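No paired analysis was possible because the 2 groups share no animal, and the labels give no replicate numbers. With 3 ewes per group and a biological coefficient of variation of 0.488, differences between animals limit the calls, and genes with few reads, BMPR1B among them, could not be tested. The number of genes called was 0 in edgeR and in limma, 15 in DESeq2, 1 in edgeR without a filter on low counts and 1 without W4 and D6. Leaving out each library gave 0 to 1 calls. The 1 gene was LOC101107743 each time, and among the single libraries it was called only without D6. Genes higher in all pairs numbered 698, with 80 at a 1.5-fold and 24 at a 2-fold gap, and genes lower in all pairs 724, with 92 and 28. Without W4 and D6 these counts were 2753 and 2868, and without each library in turn they ran from 1055 to 1914 and from 1075 to 2097, which fewer pairs bring about by construction. Of the 40 lists, 17 had a median above 0, and 11 to 21 when a library was left out, with 11 without W2. The sign of the median was the same under all 15 alternatives in 21 lists (8 above and 13 below 0) and changed in 19. These 19 include the axoneme list (without W4), the interferon list (without D5) and BMP and TGF-beta signalling. Among named genes, ABTB1 (0.04 on the log2 scale) reversed to -0.19 with a term for W4 and D6, to -0.53 without W1, to -0.06 without W2 and to -0.31 without D6 (0.51 without W4), and PAX8 (-0.54) reversed to 0.35 in limma and to 0.49 without D4 (-0.97 without D6). No other of the 124 genes chosen by the rules for names changed its direction.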
